A study of Mus musculus with 10 samples.

Results

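The 10 genes described here encode cell surface proteins that are used to sort or to stage fibroblasts on their way to pluripotency: Thy1, Cd44, Icam1, Vcam1, Pecam1, Epcam, Ly6a, Cd34, Cd9 and Nt5e. They were taken by name, with earlier results of these data known, out of 45706 genes in the deposited transcript tables, and all 10 passed the filter on low counts that left 20165 genes for testing. RNA was sequenced from mouse cells at 5 stages with 2 libraries each. MEF are embryonic fibroblasts that carry a polycistronic OKSM cassette (Oct4, Klf4, Sox2 and Myc under a doxycycline promoter) in Col1a1 and the transactivator M2rtTA in ROSA26, on a C57BL/6 x 129 background; they were grown in MEF medium without doxycycline. D3, D6 and D9 are cells of that genotype after 3, 6 and 9 days in ESC medium with 1 µg/ml doxycycline and 50 µg/ml ascorbic acid. D3 is the whole culture, while D6 and D9 are cells sorted for the carbohydrate antigen SSEA1. ESC is the V6.5 embryonic stem cell line, unsorted, grown in ESC medium on irradiated feeder cells. Medium, ascorbic acid and induction changed together between MEF and D3, and time and sorting changed together between D3 and D6, so these cannot be told apart. The labels do not say whether replicate libraries came from separate animals or cultures, so the p-values measure the spread between these libraries only.

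Surface proteins give reprogramming its practical landmarks, because living cells can be sorted by antibody at each stage. Fibroblasts carry THY1 and CD44, lose THY1 early, gain the SSEA1 epitope later, and in the classical scheme show ICAM1, EPCAM and PECAM1 as they near the pluripotent state. LY6A (Sca-1), CD34 and NT5E (CD73) are better known from progenitor and stromal cells, and CD9 is a tetraspanin of many cell types including pluripotent cells. RNA was measured here, not protein, so the values say nothing of how much antigen stood at the surface.

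Libraries held 29585876 to 38275024 estimated reads, and replicates differed by more than sampling noise in every group. In these bulk samples fewer cells of a type and less RNA per cell cannot be told apart. Of the cassette genes, Pou5f1 (Oct4) went from 2.98 CPM (counts relative to the TMM-scaled library size) in MEF to 233 at D3. Counts per gene do not separate the cassette from the endogenous gene. The 10 pluripotent cell markers summed to 184 to 189 CPM in MEF, of which Klf2 alone made 168, 32.7 to 33.7 at D3, 115 to 118 at D6, 279.7 to 285 at D9 and 3365 to 3435 in ESC. At D9 8 of the 10 were higher and 2 lower than in MEF, where 24.1% of all tested genes were higher and 19.8% lower. The 18 fibroblast markers, mostly collagens and other matrix genes, summed to 68229 to 70067 CPM in MEF, 232 to 249.6 at D9 and 6895 to 7149 in ESC, the group with feeder cells. Libraries also differed in sex-linked genes: the X inactivation RNA Xist averaged 0.766 CPM in MEF, 1010 to 1304 at D3, D6 and D9 and 10.2 in ESC, and the Y-linked Ddx3y 88.5 CPM in MEF, at most 0.164 in the induced groups and 26.5 in ESC. A difference from MEF therefore cannot be told apart from a difference between source embryos.

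Over the whole course the 10 genes followed several distinct paths. Thy1, Cd44 and Vcam1 had their lowest means at D9, with Thy1 overlapping D6, and were higher again in ESC. Ly6a, Cd34 and Nt5e were highest in an induced group and lowest in ESC. Epcam rose at each step to D9 and was lower in ESC, Icam1 and Pecam1 were highest in ESC, and Cd9 stayed within a 1.75-fold range of group means. In the text a gene is said to rise, fall or change in a comparison when its adjusted p from the quasi-likelihood test of edgeR, computed over all tested genes, was under 0.05 and its log2 fold change at least 1 in size, and log2 fold changes are given with their standard error (SE).

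**Figure D1:**
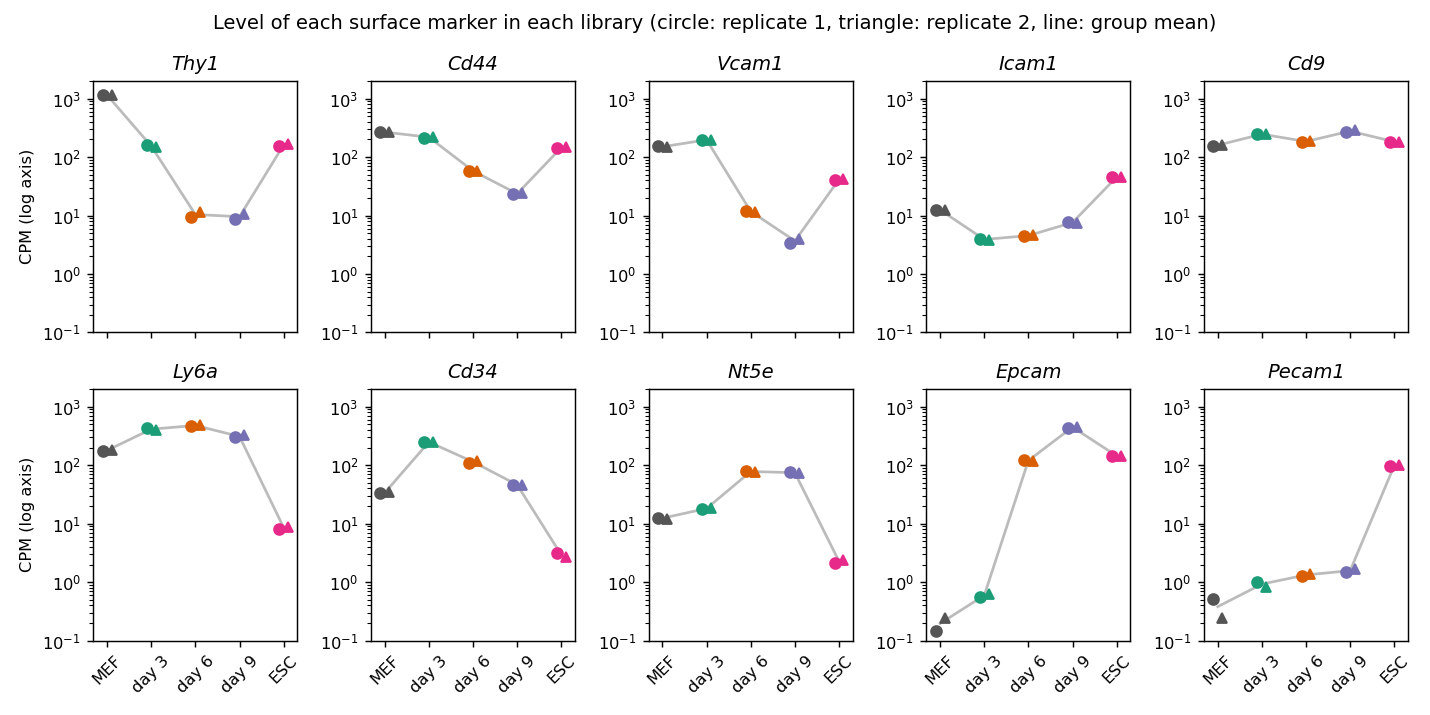
Level of each of the 10 genes in every library, in CPM on a log axis, by group (MEF, D3, D6, D9 and ESC); points are libraries, 2 per group. Thy1, Cd44 and Vcam1 reach their lowest points at D9, Epcam is near the bottom of the scale in MEF and at 441 and 457 CPM at D9, and Cd9 is nearly level.

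Thy1, a GPI-anchored protein of the immunoglobulin superfamily and the marker whose loss opens reprogramming of fibroblasts, is ENSMUSG00000032011 at chr9:44043384-44048579 on the plus strand (GRCm38). It stood at 1137 and 1161 CPM in MEF, 162 and 146 at D3, 9.55 and 11.3 at D6, 8.68 and 10.4 at D9, and 154 and 169 in ESC. The libraries of MEF lay above all others, those of D6 and D9 overlapped at the bottom, and those of D3 and ESC overlapped in between. At D3 Thy1 was below MEF by a log2 change of -2.90 (SE 0.06, edgeR adjusted p = 1.9e-14) and from D3 to D6 it fell by 3.89 (SE 0.08, adjusted p = 5.4e-14). Between D6 and D9 it differed by -0.11 (95% interval -0.34 to 0.12, edgeR adjusted p = 0.523), so a further change of that size was not resolved. In ESC it was higher than at D9 by 4.06 (SE 0.08, edgeR adjusted p = 1.4e-14), yet at 14.0% of the MEF level.

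Cd44, the main receptor for the matrix polysaccharide hyaluronan, is ENSMUSG00000005087 at chr2:102811141-102901665 on the minus strand. Its levels were 264 and 271 CPM in MEF, 216 and 222 at D3, 58.1 and 57.8 at D6, 23.1 and 24.1 at D9, and 144 and 147 in ESC. No 2 groups overlapped, and the loss came later than that of Thy1: most of it lay between D3 and D9. The log2 difference was -0.29 at D3 against MEF (SE 0.03, edgeR adjusted p = 1.5e-06), under the 2-fold minimum, then Cd44 fell by 1.92 to D6 (SE 0.04, adjusted p = 1.4e-14) and by 1.29 to D9 (SE 0.04, adjusted p = 3.6e-11). ESC exceeded D9 by 2.62 (SE 0.04, edgeR adjusted p = 7.0e-16) and held 54.4% of the MEF level, a log2 difference of -0.88 that did not reach 2-fold.

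Vcam1, an adhesion molecule that binds the integrin of ITGA4 and ITGB1, is ENSMUSG00000027962 at chr3:116109949-116129688 on the minus strand. It was measured at 153 and 147 CPM in MEF, 199.9 and 195 at D3, 12.0 and 11.6 at D6, 3.38 and 3.99 at D9, and 39.9 and 42.7 in ESC. D3 was the highest group, MEF the next, and D9 the lowest, with no overlap. The rise of 0.40 at D3 was under 2-fold (SE 0.04, edgeR adjusted p = 8.4e-07). Vcam1 then fell by 4.07 to D6 (SE 0.05, adjusted p = 5.8e-16), the largest fall of the 10 genes at that step, and by 1.66 to D9 (SE 0.09, adjusted p = 6.0e-09). It was higher in ESC than at D9 by 3.47 (SE 0.07, edgeR adjusted p = 2.2e-14), at 27.5% of MEF.

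Feeder fibroblasts grew with the ESCs. The fibroblast marker list moved with these 3 genes in D9 against MEF and in ESC against D9. At D3 edgeR called 15 of the 18 list members lower than in MEF and 0 higher (14.5% and 14.6% of all tested genes). Thy1 fell with them there, while Cd44 (-0.29) and Vcam1 (0.40) did not meet the call. All 18 list members were lower at D9 than in MEF, as were 19.8% of all tested genes, and 16 of 18 were higher in ESC than at D9 (18.6% of all). EdgeR called 0 lower in ESC than at D9, with 1 lower at an unadjusted p under 0.05 and 0 by DESeq2. Against MEF, the list's levels in ESC had a median of 9.09% and ran from 1.11% to 41.6%. Thy1 at 14.0% and Vcam1 at 27.5% lay within that range, and Cd44 at 54.4% above it. At D9 the list had a median of 0.212% of MEF and reached at most 3.57%, with Lum at 0 in both libraries, beside 0.832% for Thy1, 2.45% for Vcam1 and 8.82% for Cd44. What feeder cells contributed to the ESC values was not tested.

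**Figure D2:**
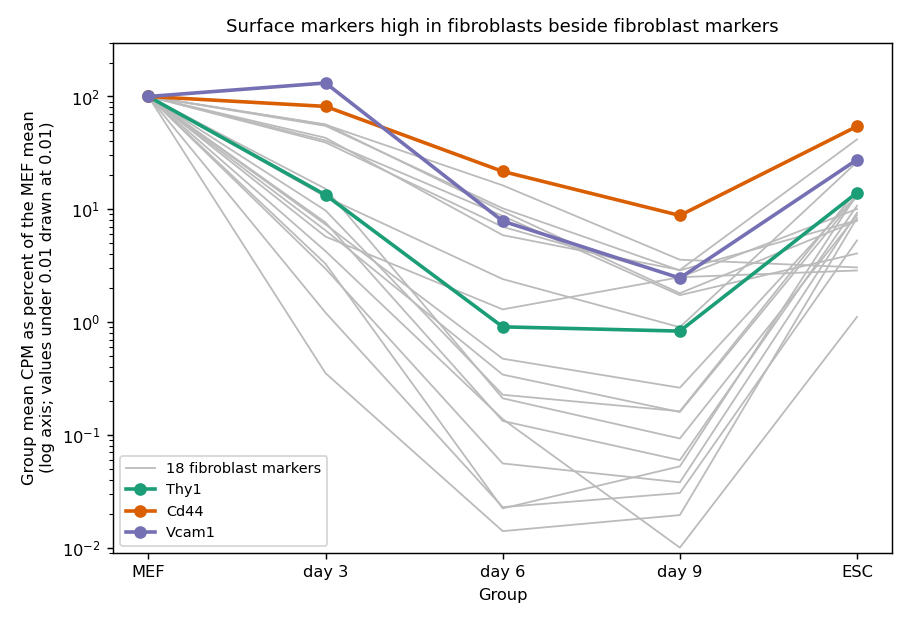
Level at D3, D6, D9 and ESC as a percent of the MEF mean, on a log axis, for the 18 fibroblast markers (grey lines) and for Thy1, Cd44 and Vcam1. In ESC Thy1 (14.0%) and Vcam1 (27.5%) run within the fibroblast markers, and Cd44 (54.4%) lies above the highest of them (41.6%).

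A set of 24 other surface proteins of fibroblasts gives the setting for these losses. From MEF to D3, 14 of the 24 fell and 3 rose, where 14.5% of all tested genes fell and 14.6% rose. From D3 to D6 19 fell (12 by limma on log2(TPM + 1)) and 1 rose, where 10.2% of all fell and 9.26% rose. At D9 20 were lower and 1 higher than in MEF, where 19.8% of all tested genes were lower and 24.1% higher. The median log2 difference was -4.41, beside 0.19 over all tested genes. The receptor Pdgfra went from 274 CPM in MEF to 1.57 at D3 (log2 fold change -7.44), and the collagen-binding integrin Itga11 from 470.3 to 3.99 (-6.88). Exceptions at D3 were Itga4, the VCAM1-binding integrin subunit, which rose from 22.9 to 161 CPM (2.81, SE 0.05, edgeR adjusted p = 6.2e-15), Cd109 and the peptidase Dpp4. In ESC 15 of the 24 were higher and 5 lower than at D9 (18.6% and 14.3% of all genes), and 13 and 2 by limma on log2(TPM + 1).

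Genes around CD44 and VCAM1 were read alongside. Among 14 tested genes of hyaluronan synthesis, turnover and CD44 processing, 1 rose and 5 fell at D3, where 14.6% of all tested genes rose and 14.5% fell. With library-size scaling in place of TMM 2 were called higher. The hyaluronan synthase Has2 fell from 46.8 to 0.352 CPM (log2 fold change -7.04) at the step where Cd44 hardly moved, and Mmp14, a protease that cleaves CD44, fell from 897.5 to 219 (-2.03). The hyaluronan-degrading Cemip rose to 113 CPM at D3 and was at 9.56 at D6. Of 7 integrin subunits that form receptors for ICAM1 and VCAM1, 2 rose and 3 fell at D3, but 1 and 1 by limma on log2(TPM + 1), beside the 29.1% of all genes called in that comparison. Itgb1, the shared beta subunit, fell from 1935 to 958 CPM at D3 and to 454 at D6, whereas Itgal and Itgb2, the leukocyte integrin pair that binds ICAM1, were at 6.93 CPM or less in all groups.

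Ly6a, a GPI-anchored LY6 protein used to isolate blood stem cells and mesenchymal progenitors, is ENSMUSG00000075602 at chr15:74994877-74998031 on the minus strand. The libraries held 178 and 180.5 CPM in MEF, 434 and 393 at D3, 476 and 481 at D6, 298 and 323 at D9, and 8.22 and 8.92 in ESC. All 6 induced libraries lay above MEF, and ESC lay far below every other group. Ly6a rose by 1.21 at D3 (SE 0.05, edgeR adjusted p = 2.0e-11), differed by 0.21 at D6 and by -0.62 at D9 from the step before, both under 2-fold, and was lower in ESC than at D9 by a log2 change of -5.18 (SE 0.07, adjusted p = 1.7e-16). Some LY6 genes are close paralogs, so estimated counts could be split between them, and the Ly6a values are uncertain to that extent.

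Cd34, a sialomucin of blood progenitors and endothelium, is ENSMUSG00000016494 at chr1:194938819-194961279 on the plus strand. Its values were 33.2 and 34.5 CPM in MEF, 251 and 248 at D3, 110.5 and 118 at D6, 45.6 and 46.8 at D9, and 3.12 and 2.72 in ESC. D3 stood highest, each later group was lower, and no groups overlapped. Cd34 rose by 2.88 at D3 (SE 0.05, edgeR adjusted p = 9.0e-16), the largest rise of the 10 genes at that step. It then fell by 1.13 (SE 0.04, adjusted p = 1.1e-11) and by 1.31 (SE 0.04, adjusted p = 4.5e-11), so that D9 differed from MEF by 0.45, under 2-fold. ESC was below D9 by a log2 change of -3.99 (SE 0.07, edgeR adjusted p = 5.3e-15). Podxl, a sialomucin of the same family, rose from 2.14 CPM in MEF to 857 at D3 (log2 fold change 8.64), stood at 1098 and 899.99 at D6 and D9 and was at 20.2 in ESC.

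Nt5e, the enzyme that turns extracellular AMP into adenosine, is ENSMUSG00000032420 at chr9:88327197-88372092 on the plus strand. Its 10 libraries read 12.6 and 12.3 CPM in MEF, 17.8 and 18.6 at D3, 78.5 and 77.6 at D6, 75.2 and 73.8 at D9, and 2.12 and 2.43 in ESC. The sorted groups D6 and D9 stood above all others, next to each other, and ESC was lowest. Nt5e rose by 2.10 from D3 to D6 (SE 0.05, edgeR adjusted p = 1.6e-13), the step at which sorting began. The log2 difference from D6 to D9 was -0.07 (95% interval -0.15 to 0.02, adjusted p = 0.264), and ESC was below D9 by a log2 change of -5.03 (SE 0.07, adjusted p = 3.0e-16).

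Relatives of these 3 genes moved in their own ways. Of 13 genes of extracellular adenosine and nucleotide handling, 2 rose (1 by DESeq2) and 3 fell (1 each by limma on log2(TPM + 1)) from D3 to D6, where 9.26% of all tested genes rose and 10.2% fell. The nucleotide pyrophosphatase Enpp3, which can produce AMP, rose from 29.6 to 297 CPM there (log2 fold change 3.32, SE 0.05, edgeR adjusted p = 1.5e-15) and was at 447 at D9 and 52.3 in ESC, while Entpd1 (CD39), another source of AMP, had risen to 32.9 CPM at D3 and fell to 3.77 at D6. Among 11 tested genes of the LY6 family other than Ly6a, edgeR called 6 higher and 0 lower from D3 to D6, where 1 was lower at an unadjusted p under 0.05 and DESeq2 also called 0 lower. Over all tested genes 9.26% were higher and 10.2% lower, and limma on log2(TPM + 1) called 4 of the 11 higher. Ly6h rose from 0.768 to 22.8 CPM at that step and Ly6g6c from 6.60 to 51.6 between D6 and D9, whereas Ly6c1 fell from 26.8 CPM in MEF to 9.22 at D3, against the direction of Ly6a. In ESC 8 of these 11 were lower than at D9 (5 by limma on log2(TPM + 1), and 14.3% of all tested genes). EdgeR called 0 higher, with 1 higher at an unadjusted p under 0.05 and 0 by DESeq2.

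Because LY6A, CD34 and PECAM1 are also proteins of blood and vessel cells, markers of both were read in every group. The 10 endothelial markers summed to 165 to 172 CPM in MEF, 134 to 139 at D3 and at D6, 89.5 to 90.3 at D9 and 57.2 to 59.8 in ESC. Their makeup shifted: Flt1 averaged 156 CPM in MEF and 4.05 at D3, Tek 2.33 in MEF and 121 at D3, Robo4 was at 0 in both libraries of D3 and D6, and Cdh5, the defining endothelial cadherin, reached at most 9.39. The 10 blood cell markers summed to 12.3 to 13.1 CPM in MEF, 202 to 203 at D3, 376 to 381 at D6, 301 to 315 at D9 and 109.8 to 113 in ESC. In the induced groups most of that was Laptm5, singled out after its values were seen, at 372 CPM at D6. The other 9 summed to 10.2 and 10.3 CPM in MEF, 16.1 and 16.0 at D3, and 5.41 and 8.11 at D6. They summed to 8.74 and 8.97 at D9 and to 37.3 and 40.5 in ESC. Ptprc, the defining CD45 gene, was under 1 CPM in every group, and Cd48 and Spi1 were at 0 in both D6 libraries. At D3, where Ly6a and Cd34 rose, edgeR called 5 of the 10 blood cell markers higher and 0 lower than in MEF. Of the 10 endothelial markers 2 were higher and 4 lower there, where 14.6% of all tested genes were higher and 14.5% lower. From D3 to D6, where Cd34 fell, edgeR called 0 blood cell markers higher and 7 lower. The endothelial counts were 3 and 2, where 9.26% of all tested genes were higher and 10.2% lower. Between D9 and ESC, the step at which Pecam1 rose, 8 of the 10 blood cell markers were higher and 1 lower, and 6 of the 10 endothelial markers higher and 4 lower, where 18.6% of all tested genes were higher and 14.3% lower. By limma on log2(TPM + 1) the counts between D9 and ESC were 3 and 1, and 1 and 2. For the blood cell markers limma gave 2 higher and 0 lower at D3, and 1 higher and 2 lower from D3 to D6. The part of such cells in the values of Ly6a, Cd34 and Pecam1 was not tested.

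The RefSeq promoter table holds Cd44, Icam1 and Epcam, the 3 genes of the classical sorting scheme that took different paths. Their windows from 250 to 11 bases before the RefSeq start (GRCm38.p6) are shown as a description of known motif letters. A link between these letters and the paths was not tested. Capitals mark matches, on either strand, to an E-box (CACCTG, the letters bound by SNAI and ZEB repressors of epithelial genes), the NF-kB letters GGAAATTCC, a CACCC box (CCACCC, the type of site KLF factors bind) and a GC box (GGGCGG). Epcam lies at chr17:87635729-87635968 on the plus strand, Icam1 at chr9:21015690-21015929 on the plus strand and Cd44 at chr2:102901676-102901915 on the minus strand.
Epcam: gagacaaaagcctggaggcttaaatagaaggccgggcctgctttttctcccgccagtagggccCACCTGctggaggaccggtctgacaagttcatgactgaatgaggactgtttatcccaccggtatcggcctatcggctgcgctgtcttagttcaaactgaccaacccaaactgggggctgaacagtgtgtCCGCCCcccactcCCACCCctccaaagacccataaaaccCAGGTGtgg
Icam1: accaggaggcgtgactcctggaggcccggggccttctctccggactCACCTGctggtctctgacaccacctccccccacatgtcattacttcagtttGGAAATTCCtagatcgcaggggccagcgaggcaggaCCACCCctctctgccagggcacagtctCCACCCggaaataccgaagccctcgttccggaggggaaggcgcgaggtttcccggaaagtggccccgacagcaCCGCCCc
Cd44: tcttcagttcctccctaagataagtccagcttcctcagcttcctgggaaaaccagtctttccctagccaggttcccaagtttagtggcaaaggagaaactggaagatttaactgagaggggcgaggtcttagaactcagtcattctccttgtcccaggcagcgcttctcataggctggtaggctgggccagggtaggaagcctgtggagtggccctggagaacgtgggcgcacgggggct
Epcam holds 2 E-boxes, a CACCC box and a GC box. Icam1 holds the NF-kB letters 153 to 145 bases before the RefSeq start, an E-box, 2 CACCC boxes and a GC box. Epcam and Icam1 thus share the E-box, CACCC box and GC box. For Icam1 the RefSeq start (21015940) differs from the GENCODE gene start (21015985). Cd44 holds none of these, nor the AP-1 letters TGANTCA or TATAAA, which were also searched and found in none of the 3. Over 32851 windows of the same length, the E-box letters occur in 16.6%, CCACCC in 27%, GGGCGG in 31.3%, TGANTCA in 6.58%, TATAAA in 12.1% and GGAAATTCC in 0.283%. No matches overlap in these windows. G and C make up 56.7% of the Epcam window, 64.2% of Icam1 and 55.0% of Cd44. For NF-kB only the fixed letters GGAAATTCC were searched, so other forms of such a site were not looked for in any window. A match is a description of letters and not of a bound site.

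Epcam, the epithelial cell adhesion molecule, is ENSMUSG00000045394 at chr17:87635979-87651129 on the plus strand. It was barely detected in MEF, with 4 and 8 reads or 0.148 and 0.244 CPM, and stood at 0.565 and 0.621 at D3, 121 and 119.7 at D6, 441 and 457 at D9, and 143 and 145 in ESC. The groups did not overlap, D9 was highest, and the step from D3 to D6 carried the gene from 21 reads in each library to 4100 and 3959. Epcam rose by 1.54 at D3 (SE 0.32, edgeR adjusted p = 7.3e-04), by 7.66 at D6 (SE 0.08, adjusted p = 6.0e-17) and by 1.90 at D9 (SE 0.03, adjusted p = 2.2e-13). ESC was below D9 by a log2 change of -1.64 (SE 0.03, edgeR adjusted p = 1.2e-14). The rise at D3 rests on few reads and was 0.14 on log2(TPM + 1) values in limma, where it was not called.

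Icam1, the endothelial and epithelial ligand of leukocyte integrins, is ENSMUSG00000037405 at chr9:21015985-21028817 on the plus strand. It measured 12.6 and 12.4 CPM in MEF, 4.01 and 3.78 at D3, 4.47 and 4.60 at D6, 7.71 and 7.48 at D9, and 46.2 and 44.9 in ESC. ESC was highest, D3 lowest, and every induced library lay below both MEF libraries. Icam1 fell by 1.68 at D3 (SE 0.08, edgeR adjusted p = 2.6e-10). The differences at D6 (0.22, adjusted p = 0.114) and D9 (0.74, adjusted p = 1.1e-05) did not meet the call, and ESC exceeded D9 by 2.59 (SE 0.07, adjusted p = 1.6e-13) and MEF by 1.87 (SE 0.06, adjusted p = 1.7e-12). Of 19 genes of the NF-kB pathway, whose factors are known to drive Icam1, edgeR called 5 lower and 0 higher at D3, with 5 higher at an unadjusted p under 0.05 and DESeq2 calling 0 higher, and library-size scaling 1. The total called is near the 29.1% of all tested genes, so that total is no result about the pathway. By direction 14.5% of all tested genes were lower and 14.6% higher, and the direction of the 5 is given as a description. The interleukin receptor Il1r1 fell from 73.1 to 3.51 CPM and the chemokine Cxcl1 from 53.9 to 10.04. In ESC 9 of the 19 were lower than in MEF and 0 higher by edgeR, with 3 higher at an unadjusted p under 0.05 and 0 by DESeq2. The total called is near the 46.1% of all tested genes. By direction 20.6% of all tested genes were lower and 25.5% higher, and the direction of the 9 is given as a description.

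Pecam1, an adhesion molecule that binds itself across neighbouring endothelial or pluripotent cells, is ENSMUSG00000020717 at chr11:106654217-106750628 on the minus strand. Its libraries read 0.517 and 0.244 CPM in MEF, 1.02 and 0.828 at D3, 1.26 and 1.39 at D6, 1.48 and 1.67 at D9, and 96.3 and 102 in ESC. Every induced library stayed under 2 CPM, and only ESC carried the gene at a substantial level. It rose by 5.96 from D9 to ESC (SE 0.10, edgeR adjusted p = 1.4e-15). The log2 fold change of 1.33 at D3 (SE 0.31, adjusted p = 0.00162) rests on 14 and 8 reads in MEF and was 0.85 with adjusted p = 0.0576 without MEF replicate 2. The steps to D6 (0.51, edgeR adjusted p = 0.0617) and D9 (0.25, adjusted p = 0.361) did not meet the call.

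**Figure D3:**
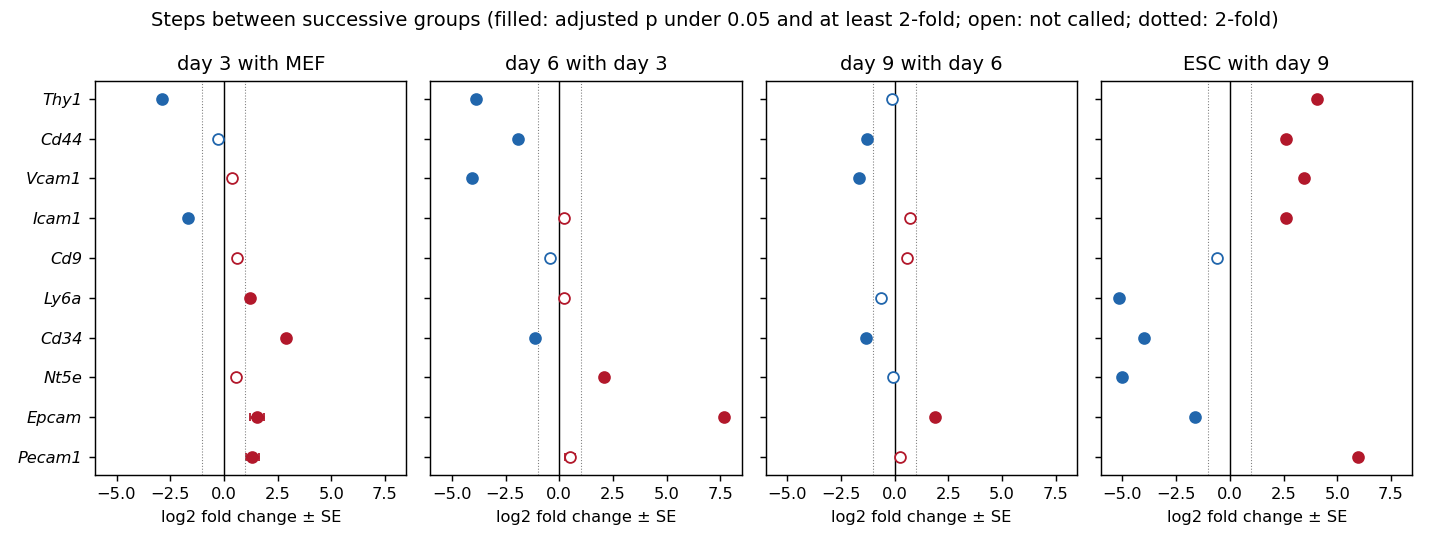
Log2 fold change of each of the 10 genes at the 4 successive steps (D3 against MEF, D6 against D3, D9 against D6 and ESC against D9), with bars of 1 SE from edgeR; dotted vertical lines mark a 2-fold change, and filled points passed the call. Epcam has the largest step (7.66 at D6), Pecam1 changes most between D9 and ESC (5.96), and Cd9 stays inside the dotted lines at all 4 steps.

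Cd9, a tetraspanin that organises other membrane proteins, is ENSMUSG00000030342 at chr6:125460266-125494791 on the minus strand. It stood at 156 and 163 CPM in MEF, 249 and 244 at D3, 184 and 185 at D6, 272 and 285 at D9, and 183 and 183 in ESC. The groups D9 and D3 were the higher ones, and D6 and ESC lay close together, D6 first on the CPM scale and ESC first in TPM, which divides by transcript length. None of the 6 comparisons reached 2-fold, the largest being 0.80 for D9 against MEF (SE 0.04, edgeR adjusted p = 3.4e-11). Among 11 other tetraspanins and partner proteins edgeR called 5 lower and 0 higher at D3, with 3 higher at an unadjusted p under 0.05 and DESeq2 calling 0 higher. Over all tested genes 14.5% were lower and 14.6% higher. With library-size scaling the counts of the 11 were 3 lower and 1 higher, and limma on log2(TPM + 1) called 3 lower. Cd63, a tetraspanin of endosomes, went from 621 CPM in MEF to 165 at D3 and Cd82 from 28.0 to 3.70, beside the higher Cd9. Ptgfrn, a membrane partner of CD9, went from 185 CPM in MEF to 354 at D3, under the 2-fold call, and stood at 378 at D9, a log2 difference of 1.03 from MEF that DESeq2 did not call.

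The epithelial setting of Epcam was read from 24 other surface proteins of epithelial and pluripotent cells. At D3 8 rose and 6 fell (14.6% and 14.5% of all tested genes), but 4 and 1 by limma on log2(TPM + 1). At D6 13 rose and 1 fell against D3 (9.26% and 10.2% of all), and at D9 15 rose and 1 fell against D6 (5.18% and 2.68% of all). The cadherin Cdh1 stood at 0.370 CPM in MEF, 9.49 at D3, 78.8 at D6, 414 at D9 and 356 in ESC and passed the call at each step up to D9. The claudin Cldn6 rose from 10.8 to 138 CPM between D6 and D9 (log2 fold change 3.67). Between D9 and ESC 7 of the 24 rose and 12 fell (18.6% and 14.3% of all). Epcam was among the genes lower in ESC, with Podxl and Cd24a, whereas Tdgf1 (Cripto), a Nodal co-receptor of pluripotent cells, rose from 99.2 to 837 CPM.

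Counted over the 10 genes, 4 were called higher and 2 lower at D3 against MEF, where 29.1% of all tested genes were called, 14.6% higher and 14.5% lower. From D3 to D6 2 were higher (Epcam and Nt5e) and 4 lower (Thy1, Cd44, Vcam1 and Cd34) against a background of 19.5%, 9.26% higher and 10.2% lower. From D6 to D9 1 was higher (Epcam) and 3 were lower (Cd44, Vcam1 and Cd34), where 7.87% of all genes were called, 5.18% higher and 2.68% lower. Between D9 and ESC 5 were higher and 4 lower, all but Cd9, against 32.9%, 18.6% higher and 14.3% lower. D9 differed from MEF in 6 genes, 3 in each direction, where 43.9% of all genes were called, 24.1% higher and 19.8% lower. Of the 3 higher, Pecam1 (2.10, SE 0.27) rests on 14 and 8 reads in MEF. Limma did not call it, with 0.23 on log2(TPM + 1) and 0.99 on log2(TPM + 0.1). ESC differed from MEF in 8, 3 higher and 5 lower, against 46.1%, 25.5% higher and 20.6% lower. The median log2 fold change of the 10 genes was 0.59 at D3 against MEF, -0.10 at D6 and -0.09 at D9 against the step before, and 0.99 in ESC against D9, beside 0.08, 0.03, 0.00 and 0.00 over all tested genes. The 10 genes were picked as known stage markers, so these shares are given as a description.

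At D9 several of these genes lay outside the range between the MEF and ESC libraries. Epcam and Nt5e were called higher at D9 than in both MEF and ESC, a pattern held by 8.17% of tested genes. Thy1, Cd44 and Vcam1 were called lower at D9 than in both, as were 8.48% of tested genes. Both comparisons use the same D9 libraries. The levels of Ly6a and Cd34 at D9 were within 2-fold of MEF and far above ESC, and that of Icam1 was within 2-fold of MEF and below ESC.

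Compared per length, in TPM, the most abundant of the 10 changed from group to group. In MEF Thy1 led with 354 TPM, ahead of Ly6a with 144 and Cd9 with 82.2. At D3, D6 and D9 Ly6a led with 339, 390.4 and 238 TPM, and Cd9 was next with 127, 97.5 and 136. Epcam was last in MEF and in the third place at D6 and D9 with 31.1 and 109 TPM. In ESC Cd9 led with 101.2 TPM, followed by Thy1 with 52.5, Epcam with 39.0 and Pecam1 with 19.1, and Nt5e was last with 0.298. How much of the Thy1 value in ESC came from feeder fibroblasts was not tested.

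The antibody pairs of the sorting scheme can be set against each other as ratios of RNA. On the log2 TPM scale Icam1 over Cd44 was -3.69 and -3.70 in MEF, -4.79 and -4.97 at D3, -2.92 and -2.88 at D6, -0.67 and -0.74 at D9, and -0.93 and -1.03 in ESC. The ratio was lowest at D3 and highest at D9, and D9 libraries lay above both ESC libraries. Between D9 and ESC, Icam1 was 6.00-fold higher and Cd44 6.16-fold higher in the edgeR fit. Epcam over Thy1 went from -13.18 and -12.49 in MEF to -8.43 and -8.15 at D3, 3.39 and 3.14 at D6, and 5.40 and 5.18 at D9, and was -0.37 and -0.48 in ESC. By this pair the ESC libraries lay between D3 and D6, whereas by Icam1 over Cd44 they lay between D6 and D9. The ESC cultures held feeder fibroblasts, and Thy1 and Cd44 were highest in MEF. The 18 fibroblast markers summed to 6895 to 7149 CPM in ESC and 232 to 249.6 at D9. The part of feeder RNA in these ratios was not tested, so they do not place stem cells on the course.

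**Figure D4:**
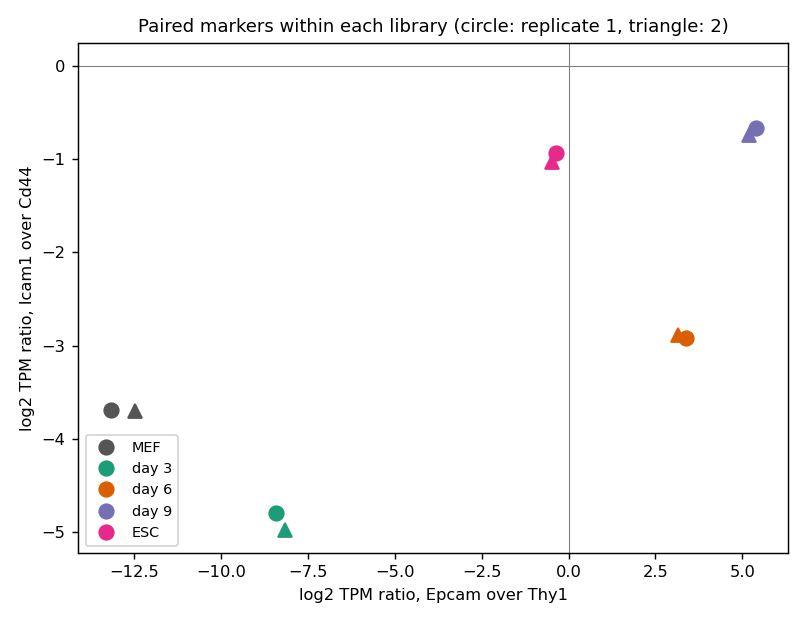
Log2 ratio of TPM for Epcam over Thy1 (horizontal axis) and Icam1 over Cd44 (vertical axis), 1 point per library, by group. D9 libraries lie at the upper right (5.40 and 5.18 on the horizontal axis), and ESC libraries at -0.37 and -0.48, between D3 and D6 on that axis. The part of feeder cells in the ESC values was not tested.

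Transcripts within a gene also shifted, as far as 50 nt single reads resolve them. Cd44 reads fell mainly on Cd44-201, which has 14 coding exons and took 73.2% ± 2.01 in MEF and 69.7% ± 10.7 at D9 (SD, n = 2). Cd44-001, which has 19 coding exons, 5 of them absent from Cd44-201, took 23.6% and 14.0% of Cd44 reads in the D9 libraries and at most 2.0% in every other library. Cd44-201 in turn holds 5 coding exons that Cd44-002, with 9 coding exons, lacks. Reads over single exons were not counted, so whether extra exons were particular to D9 was not tested. Variable exons make the variant CD44 proteins known from epithelial cells. Esrp1, a splicing factor that favours the inclusion of such exons, stood at 8.39 CPM at D6, 83.8 at D9 and 13.8 in ESC, and its part in the transcript share was not tested. These shares are estimates by the quantifier between overlapping models that also differ outside the coding exons, and 719 and 953 Cd44 reads in the D9 libraries stand behind them.

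Pecam1 reads outside ESC came in large part from an unspliced model. Pecam1-009, annotated as a retained intron, took 92.9% and 52.8% of the gene's few reads in MEF, 34.6% and 31.4% at D9, and 1.2% and 0.8% in ESC. Reads on protein-coding models numbered 1.0 and 3.6 in MEF, 16.4 and 13.0 at D3, and 3217 and 3777 in ESC. Over protein-coding models alone the log2 difference of ESC from MEF was 10.11, in place of 8.06. Cd34 reads in ESC were likewise 43.6% and 36.9% on the retained intron Cd34-004, which took at most 5.1% in any other library. Thy1, Icam1 and Epcam each have a single model in these tables.

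**Figure D5:**
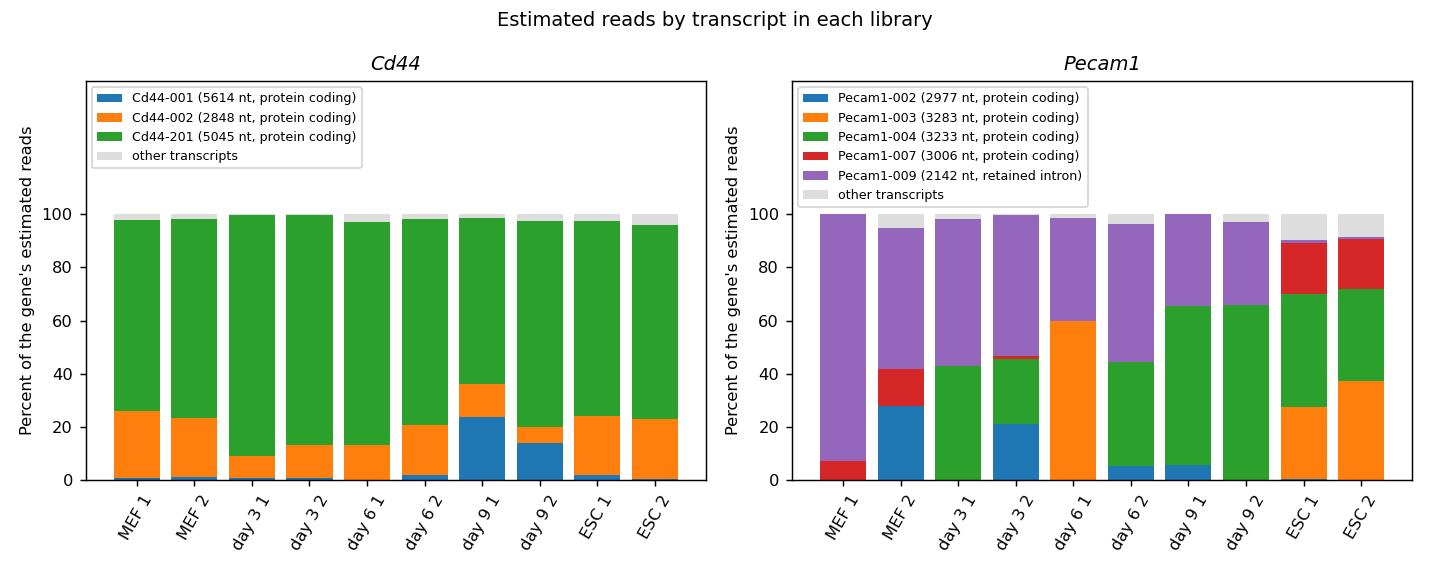
Share of Cd44 and Pecam1 reads assigned to each transcript, in percent of the gene's reads, for each library; bars are stacked to 100. Cd44-001 is visible in the D9 libraries (23.6% and 14.0%), and the retained intron Pecam1-009 takes 92.9% and 52.8% in MEF against 1.2% and 0.8% in ESC.

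SSEA1 itself, the antigen of the sort, is made by fucosyltransferases. Fut9 averaged 0.120 CPM in MEF, 2.67 at D3, 70.8 at D6, 69.6 at D9 and 14.4 in ESC, and Fut4 at most 2.81 CPM. Of 6 tested genes of SSEA1 synthesis edgeR called 1 higher (Fut9) and 0 lower from D3 to D6. At an unadjusted p under 0.05 3 were lower, and DESeq2 called 0 lower. Over all tested genes 9.26% were higher and 10.2% lower. From MEF to D3 3 of the 6 rose and 2 fell (14.6% and 14.5% of all). The 2 were B4galt1, from 189 to 68.4 CPM, and B3gnt5, from 20.4 to 7.41. The step of Fut9 from D3 to D6 (log2 fold change 4.73, SE 0.10, edgeR adjusted p = 3.4e-14) fell at the same point as those of Epcam and Nt5e. D6 was sorted for SSEA1 and D3 was not, so a change with time cannot be told apart from selection by the sort. Like Epcam and Nt5e, Fut9 was lower in ESC than at D9, by a log2 change of -2.28.

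For each of the 10 genes the nearest patterns among 9570 protein-coding genes were found by the root mean square difference of centred log2 CPM over the 10 libraries. Medag and Cav1 lay nearest to Thy1 (0.19 and 0.21 log2 units), Tspan2 to Cd44 (0.19), Tnfrsf11b to Vcam1 (0.51), and Taf7 to Icam1 (0.24). Grhl2, an epithelial transcription factor, lay nearest to Epcam (0.62): it stood at 0.0152 CPM in MEF, 16.2 at D6, 51.9 at D9 and 13.3 in ESC. Spats2l lay nearest to Ly6a (0.40), Agtr1a to Cd34 (0.37), Ephb6 to Nt5e (0.27), Rcan1 to Cd9 (0.13) and Gm17067 to Pecam1 (0.34). Genes with small changes, such as Cd9, have close neighbours by construction of this measure.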

How the data were processed

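Stranded poly(A) RNA libraries were sequenced as single reads of 50 nt, per the labels' protocols, and the submitters' processing notes name Salmon 0.8.2 and the build mm10. Per the file headers, the authors deposited 1 table per library with estimated counts (not normalized) and TPM for 109617 transcripts. Both were summed per gene ID (each of the 10 symbols has a single ID), and counts were rounded. Effective lengths were the same in all 10 tables. After filterByExpr (minimum count 10) and TMM scaling, all 10 libraries entered a quasi-likelihood model (edgeR 4.0.16 in R 4.3.3) with group means, and p-values were adjusted by Benjamini-Hochberg over 20165 genes; CPM is on the TMM scale. SE was taken from the fold change and the F statistic, and 95% intervals are 1.96 SE to each side. With 2 libraries against 2, an exact permutation test cannot give a p under 0.333, so none was run. Replicates differed beyond sampling noise (chi-square per degree of freedom 2.78 to 5.05).

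Gene IDs were looked up in GENCODE M21 (GRCm38) for coordinates, and promoter letters from RefSeq (GRCm38.p6), which held 6 of the 10 genes. The fits were run on simulated counts with a fixed spread and few genes changed, at D3 only. That setting differs from these data, so it does not show their error rates. The 10 genes, the lists around them and the tests were chosen with earlier results of these data known. Named from each list were up to 2 genes with the largest rise and 2 with the largest fall per comparison, among called genes at 20 CPM or more whose groups did not overlap. Further list genes are named as known partners, defining markers or exceptions. Alternatives were DESeq2 1.42.0, limma 3.58.1 on log2(TPM + 1) and log2(TPM + 0.1), other filters, scaling and fold minimum, only the groups compared, a replicate block, leaving out each library and, added after seeing the data, protein-coding transcripts only.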

Additional observations from a re-analysis of the deposited data

How the results depend on the processing

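Of the 60 gene and comparison results, fits to only the groups compared, DESeq2, either other low-count filter and protein-coding transcripts only kept every direction and call. Limma on log2(TPM + 1) lost 7 calls and on log2(TPM + 0.1) 3: at D3 against MEF it left 2 genes higher (main 4) with either pseudocount, and 1 lower (main 2) with the larger. Without a fold minimum, 7 genes were higher at D3 against MEF, 3 at D9 against D6 (main 1) and 6 at D9 against MEF (main 3). Library-size scaling gave 5 higher at D9 against MEF, where Ly6a (1.08) and Cd9 (1.09) passed; it moves the median of all genes there to 0.48, against 0.19 with TMM. Leaving out each library gave 3 to 4 higher at D3 against MEF, lost for Pecam1 (0.85) without MEF replicate 2; every other count of called genes stayed at its value. The uncalled Thy1 difference of D9 from D6 (-0.11) ran from -0.26 to 0.01 when a library was left out (0.01 without D6 replicate 2, 0.00 without D9 replicate 1). Same-numbered libraries correlated at -0.148 to 0.117, so the numbers were not taken as pairs; with the replicate block the log2 fold change of Thy1 at D3 was -2.90, and all 60 results kept their call. Counts over all genes moved by more than 1.5 times as follows, as higher and lower with the 10 CPM filter, which tests fewer genes, in limma on log2(TPM + 1), and without a fold minimum. D3 against MEF went from 2950 and 2923 to 1467 and 1555, 1280 and 1383, and 7146 and 5948. D6 against D3 went from 1867 and 2059 to 806 and 1208, 586 and 815, and 5890 and 5497. D9 against D6 went from 1045 and 541 to 477 and 298, 229 and 153, and 3162 and 3819. ESC against D9 went from 3748 and 2889 to 1508 and 1458, 1702 and 1066, and 7280 and 6748. D9 against MEF went from 4857 and 3994 to 2289 and 2470, 2062 and 2563, and 8414 and 6684. ESC against MEF went from 5142 and 4148 to 2337 and 2730, 2774 and 2281, and 8140 and 7302. With log2(TPM + 0.1), limma gave 572 higher at D9 against D6 and 1916 lower in ESC against D9. The cause of these changes was not tested. Depth limits the rises of Epcam and Pecam1 at D3, which rest on 4 to 38 reads per library. It also limits the higher Pecam1 at D9 against MEF, with 14 and 8 reads in MEF. Ranked by Pearson correlation instead, 0 to 2 of the 3 nearest genes were the same for each of the 10 genes.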
